A study of Homo sapiens with 6 samples.

Results

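The 10 genes described here take iron into the cell, store it, release it or break down haem, together with lipocalin 2, a secreted protein that binds iron-carrying siderophores. They are FTH1, FTL, TFRC, SLC40A1, SLC11A2, HMOX1, IREB2, ACO1, NCOA4 and LCN2. They were taken by gene symbol from the deposited tables, and all 10 were found among the 26255 listed genes. The cells were HCT116, an established human colorectal carcinoma line, transduced according to the series title with the degron of ornithine decarboxylase. In this kind of reporter the degron is joined to the green fluorescent protein ZsGreen and sends it to the proteasome, so that cells which degrade it slowly stay fluorescent. The labels give 3 libraries of cells without ZsGreen fluorescence (ZsGreen-negative) and 3 of cells with it (ZsGreen-positive), all from total RNA made into stranded mRNA libraries. They name no other treatment, time or clone. Separate cultures are not mentioned either, so each p-value rests on the spread among 3 libraries a group, part or all of which may be technical.

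Cells take up transferrin-bound iron through the transferrin receptor and move it into the cytosol through the transporter DMT1. Surplus iron is held in ferritin, a shell of heavy and light chains, from which the receptor NCOA4 releases it by autophagy, and ferroportin is the only known exporter. Iron regulatory proteins bind a hairpin called the iron-responsive element: at the start of an mRNA they block translation, and at its end they protect the mRNA from decay. The antioxidant factor NRF2 and the haem-sensing repressor BACH1 also act on transcription of the ferritin chains and of haem oxygenase 1.

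Iron-responsive elements are shown because they are the sites through which iron regulatory proteins act on mRNA. FTH1 and HMOX1 were not searched here, although FTH1 mRNA is also known to carry such an element. The other 8 members were searched in GENCODE transcripts (GRCh38) for a C, 5 bases, the loop CAGTGN and 5 bases that pair with the first 5, with G-T pairs allowed. Capitals mark the 6 loop bases.
FTL, 5′ UTR, chr19:48965335-48965363, plus strand: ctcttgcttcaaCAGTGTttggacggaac
SLC40A1, 5′ UTR, chr2:189580661-189580689, minus strand: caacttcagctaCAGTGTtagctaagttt
TFRC, 3′ UTR, chr3:196050979-196051007, minus strand: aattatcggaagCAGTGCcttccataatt
TFRC, 3′ UTR, chr3:196050575-196050603, minus strand: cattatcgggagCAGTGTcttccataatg
TFRC, 3′ UTR, chr3:196050510-196050538, minus strand: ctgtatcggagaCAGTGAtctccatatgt
TFRC, 3′ UTR, chr3:196050463-196050491, minus strand: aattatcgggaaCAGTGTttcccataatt
SLC11A2, 3′ UTR, chr12:50988269-50988297, minus strand: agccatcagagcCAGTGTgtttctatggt
All 5 stem positions paired in FTL, SLC40A1 and the TFRC hairpins, and 4 in SLC11A2. Among the longest coding transcripts of 19669 genes, 1.32% held a match with 5 pairs and 10.1% one with at least 4. For the members all coding transcripts were searched and the one with the most matches was kept, so they had more chances to match. At 4 pairs ACO1 and IREB2 also matched once each in the 3′ UTR.

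Values are FPKM, the fragments of a gene divided by its length in kilobases and by the mapped fragments in units of 1000000. Levels of different genes can thus be set side by side, though only roughly. Small RNA genes held 66.0% to 68.1% of the FPKM sum of each library, so that sum depends mostly on them. Depth, estimated from the lowest values, was 9420000 to 9820000 fragments in the ZsGreen-negative libraries and 12200000 in ZsGreen-positive replicate 1. ZsGreen-positive replicates 2 and 3 held too few low values for an estimate, with 34 and 24 usable low genes against 192 to 270 in the other libraries. They also listed 11624 and 11989 genes at 0, against 8985 to 10314 elsewhere, so results are also given with replicate 1 alone as the ZsGreen-positive group, where the lone sample is assumed to vary like the negative group. The titles of the positive and the negative libraries follow different patterns, and if they were prepared in separate batches, batch and fluorescence cannot be told apart. Epithelial identity was checked with EPCAM, at 126 to 133 FPKM in the negative and 138 to 152 FPKM in the positive libraries, and with KRT19, at 1076 to 1085 and 1012 to 1147 FPKM. Of 7 tested epithelial markers 2 were higher (EPCAM and CDX2), 3 lower and 2 did not pass (limma). The keratin KRT8 fell from 1518 ± 23.5 to 1152 ± 63.1 FPKM and KRT18 from 1505 ± 20.3 to 955 ± 90.2 FPKM. CDH1, which encodes E-cadherin, fell from 49.8 ± 0.455 to 17.4 ± 1.42 FPKM. VIL1, an intestinal brush border gene, reached at most 0.0377 FPKM. None of 6 erythroid and 4 hepatocyte markers reached the mean needed for the test. The erythroid genes summed to 0.0565 to 0.285 FPKM in the negative and 0 to 0.826 FPKM in the positive libraries, with HBA1, HBA2 and HBB listed at 0 in all 6, and the hepatocyte genes to 0.315 to 1.10 and 0.315 to 0.900 FPKM, with HAMP at 0. Of 6 macrophage and leukocyte markers 2 were tested, and the list summed to 3.02 to 3.94 FPKM in the negative and 0.471 to 4.44 FPKM in the positive libraries, with CD163 at 0. LYZ, which encodes lysozyme, fell (limma, adjusted p = 0.0484), at 2.03, 1.62 and 1.80 FPKM in the negative and 0.284, 1.53 and 0 FPKM in the positive libraries. CD68 did not pass (adjusted p = 0.867) and was at 4.13, 0.919 and 0.471 FPKM in the positive libraries, against 1.36 to 1.73 FPKM in the negative ones. Of 4 stromal markers, which summed to 2.33 to 2.48 and 0.675 to 1.19 FPKM, COL1A1 was tested and fell (adjusted p = 0.00727), and COL1A2 and DCN were at 0. The part of these markers in the results was not tested.

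FPKM of both ferritin chains and of HMOX1 was far lower in ZsGreen-positive cells, and LCN2 fell further still with a pseudocount of 1, though not with one of 5 (-2.14, against -2.34 for FTH1 and -2.29 for HMOX1). Of the 9 members with a mean of at least 1 FPKM, 6 fell (FTH1, FTL, TFRC, HMOX1, NCOA4 and LCN2), 1 rose (ACO1) and 2 did not pass the test (SLC11A2 and IREB2). The test was limma on log2(FPKM + 1) over 12213 genes, with a Benjamini-Hochberg adjusted p of 0.05 as the threshold. The background was high: 59.4% of all tested genes passed, 29.4% higher and 30.0% lower. Groups did not overlap for 7 of the 9 members, against 67.6% of all tested genes. The median log2 fold change, positive minus negative, was -0.61 over the 9 members and 0.0040 over all tested genes. Falls of at least 2-fold on this scale were found for 4 members, FTH1, FTL, HMOX1 and LCN2, and for 8.34% of all tested genes. The members were chosen with earlier results of these data known, so these contrasts describe the members and do not test them as a set. In bulk samples, fewer cells of a kind and less RNA per cell cannot be told apart.

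**Figure D1:**
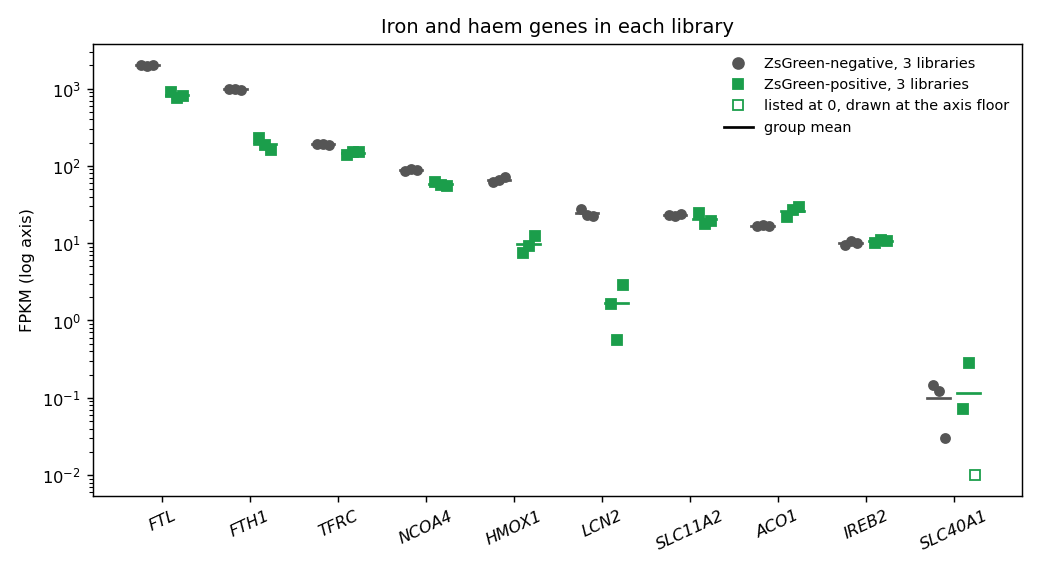
FPKM of each of the 10 genes in each library on a log axis, with group means as lines, ordered by the ZsGreen-negative mean. FTL, FTH1, HMOX1 and LCN2 lie well apart between the groups, while SLC11A2, IREB2 and SLC40A1 overlap.

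FTH1 encodes the ferritin heavy chain, which oxidises iron as it enters the shell. It was at 1001, 980 and 954 FPKM in the negative libraries and at 230, 183 and 161 FPKM in the positive ones. The highest positive library lay far below the lowest negative one. Its mean fell from 978 ± 23.4 to 191 ± 35.0 FPKM (SD, n = 3 each), 5.11-fold, with a log2 fold change of -2.36 ± 0.12 (SE; limma, adjusted p = 5.7e-06). FTL encodes the light chain, which helps iron to mineralise inside the shell. It was the most abundant of the 10 in both groups, at 2011, 1967 and 2046 FPKM in the negative and 901, 765 and 797 FPKM in the positive libraries. Its mean fell 2.45-fold, with a log2 fold change of -1.29 ± 0.0746 (limma, adjusted p = 9.53e-06). With replicate 1 alone as the ZsGreen-positive group the log2 fold changes were -2.09 for FTH1 and -1.16 for FTL.

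The fall was larger for the heavy chain than for the light chain in each positive library. The ratio of FTH1 to FTL within a library was 0.498, 0.498 and 0.466 in the negative and 0.255, 0.240 and 0.202 in the positive libraries. This ratio does not depend on the scaling between libraries, and the groups did not overlap. The difference on the log2 scale was -1.08 (two-sided exact permutation test, p = 0.1, the smallest that 3 against 3 can give). It was the first of 4 ratios examined, whose p-values were all 0.1, also after Benjamini-Hochberg adjustment (exact permutation tests). Both ferritin chains have processed copies in the genome, and how reads shared with them were counted is not given in the sources used here. Of the 3 such copies listed by symbol, FTH1P18 and FTLP10 were at 0 in all libraries. FTH1P3 was at 0.603, 0.380 and 0.747 FPKM in the negative and 0.388, 1.31 and 4.51 FPKM in the positive libraries, and did not pass the test (limma, adjusted p = 0.213; 0.0364 without ZsGreen-positive replicate 1). It was thus under 5 FPKM in every library, where FTH1 was at 161 FPKM or more.

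NCOA4 encodes the autophagy receptor that carries ferritin to the lysosome. It was at 86.2, 90.1 and 89.0 FPKM in the negative and 61.8, 56.2 and 54.5 FPKM in the positive libraries. The groups were apart, and NCOA4 fell by a smaller factor than either ferritin chain, 1.54-fold (log2 fold change -0.61 ± 0.0653; limma, adjusted p = 0.000172). SLC40A1, which encodes the exporter ferroportin, was near the limit of detection. It was at 0.147, 0.124 and 0.0303 FPKM in the negative and 0.0724, 0.279 and 0 FPKM in the positive libraries, below the filter and therefore not tested. In the 4 libraries with a depth estimate this corresponds to about 1.01 to 4.97 fragments, so a difference was not detectable at this depth.

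The tested uptake genes had smaller log2 fold changes than the ferritin chains. TFRC, the transferrin receptor, was at 192, 191 and 187 FPKM in the negative and 138, 150 and 152 FPKM in the positive libraries. The groups did not overlap, and the mean fell 1.30-fold, with a log2 fold change of -0.38 ± 0.0576 (limma, adjusted p = 0.00103). This call depended on the scaling. With the values of each library rescaled to sum to 1000000, the value was -0.20 (limma, adjusted p = 0.121). With small RNA genes left out of that sum it was -0.22 (limma, adjusted p = 0.0543). The first of these rescalings moved the median of all tested genes from 0.0040 to 0.14. Quantile normalisation gave -0.65 for TFRC. SLC11A2, which encodes DMT1, was at 23.2, 22.4 and 23.7 FPKM in the negative and 24.6, 17.8 and 19.2 FPKM in the positive libraries. Here the groups overlapped, with ZsGreen-positive replicate 1 above all other libraries and replicates 2 and 3 below them. The log2 fold change was -0.17 ± 0.12 and did not pass (limma, adjusted p = 0.242). Without ZsGreen-positive replicate 1 it was -0.31 and passed (limma, adjusted p = 0.00919), and with that library alone it was 0.0877.

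Relative to the ferritin heavy chain, the receptor transcript was more abundant in every ZsGreen-positive library. The ratio of TFRC to FTH1 was 0.192, 0.195 and 0.196 in the negative and 0.600, 0.818 and 0.941 in the positive libraries. Its group mean was 4.04-fold higher in the positive libraries, and the log2 difference was 1.99 (two-sided exact permutation test, p = 0.1, the smallest possible). Since TFRC itself fell with the deposited scaling, the higher ratio goes with the lower FTH1 level.

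Of the 2 genes for iron regulatory proteins, ACO1 rose and IREB2 did not pass. ACO1 encodes the protein that is either cytosolic aconitase or iron regulatory protein 1, depending on whether it holds an iron-sulphur cluster. It was at 16.7, 17.1 and 16.5 FPKM in the negative and 22.1, 26.6 and 29.04 FPKM in the positive libraries. Every positive library was above every negative one, and the mean rose 1.55-fold (log2 fold change 0.59 ± 0.10; limma, adjusted p = 0.00208). With replicate 1 alone as the ZsGreen-positive group the value was 0.38. No p-value is given for it, because the SD of ACO1 was 3.51 FPKM in the positive and 0.339 FPKM in the negative libraries. IREB2 encodes iron regulatory protein 2, which is controlled by degradation of the protein when iron is plentiful. It was at 9.53, 10.7 and 9.996 FPKM in the negative and 10.1, 11.05 and 10.8 FPKM in the positive libraries. The groups overlapped, and the log2 fold change of 0.0713 ± 0.0863 did not pass (limma, adjusted p = 0.502). The ratio of IREB2 to ACO1 was 0.572, 0.625 and 0.607 in the negative and 0.456, 0.416 and 0.371 in the positive libraries. The log2 difference of this ratio was -0.54 (two-sided exact permutation test, p = 0.1, the smallest possible).

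HMOX1 encodes haem oxygenase 1, the inducible enzyme that opens the haem ring and frees its iron. It was at 61.7, 65.6 and 71.2 FPKM in the negative and 7.43, 9.23 and 12.5 FPKM in the positive libraries. The groups were far apart, and the mean fell 6.82-fold (log2 fold change -2.67 ± 0.16; limma, adjusted p = 1.21e-05). In the negative libraries HMOX1 stood above 90.8% of the tested genes, and in the positive ones above 49.98%. HMOX2, the constitutive haem oxygenase, was at 46.1, 48.2 and 50.7 FPKM in the negative and 43.4, 28.2 and 34.6 FPKM in the positive libraries. Its log2 fold change was -0.46 (limma, adjusted p = 0.0271), but -0.15 with replicate 1 alone as the ZsGreen-positive group. Leaving out any 1 of the negative libraries, or ZsGreen-positive replicate 3, or using no filter, ended this call (limma, adjusted p 0.0546 to 0.0851). HMOX1 was the more abundant of the pair in every negative library, with a ratio of 1.34, 1.36 and 1.40, and the less abundant in every positive library, with 0.171, 0.327 and 0.360. The log2 difference of the ratio was -2.33 (two-sided exact permutation test, p = 0.1, the smallest possible).

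LCN2 encodes lipocalin 2, which is induced by NF-kappaB in inflamed epithelium. It was at 27.4, 22.9 and 22.8 FPKM in the negative and 1.63, 0.560 and 2.91 FPKM in the positive libraries. The groups were widely apart. Its mean fell 14.3-fold, from 24.4 ± 2.60 to 1.70 ± 1.18 FPKM (log2 fold change -3.33 ± 0.30; limma, adjusted p = 8.14e-05). Without ZsGreen-positive replicate 3 the fall was 22.3-fold, and without ZsGreen-positive replicate 2 it was 10.7-fold. On the log2(FPKM + 1) scale the change of so low a gene is understated, and with a pseudocount of 5 it was -2.14. The level in ZsGreen-positive replicate 1 corresponds to about 17.4 fragments, and those of the negative libraries to about 189 to 236. SLC22A17, which encodes a receptor for lipocalin 2, was at 1.26, 1.17 and 1.32 FPKM in the negative and 1.95, 2.52 and 0.820 FPKM in the positive libraries. It did not pass the test (limma, adjusted p = 0.439), and passed as higher without ZsGreen-positive replicate 3 (limma, adjusted p = 0.0251).

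The promoter of LCN2 is printed because LCN2 had the largest ratio of group means among the tested members. RefSeq (GRCh38.p14) gives the 250 bases before its start as chr9:128149203-128149452, plus strand. Capitals mark matches to the NF-kappaB core (GGG and CC with 5 bases between them) and to TGANTCA. The letters TGANTCA are a loose form of the AP-1 motif that allows any base at N, here an A.
LCN2: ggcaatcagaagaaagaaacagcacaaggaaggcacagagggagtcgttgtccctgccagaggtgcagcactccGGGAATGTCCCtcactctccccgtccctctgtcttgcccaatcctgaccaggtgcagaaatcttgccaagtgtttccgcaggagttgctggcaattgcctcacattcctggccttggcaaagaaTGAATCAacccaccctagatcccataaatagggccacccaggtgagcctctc
The NF-kappaB letters match on both strands in overlapping positions. Of 35116 promoters of 300 bases, searched on both strands, 58.7% held the NF-kappaB core and 7.71% held TGANTCA. Promoters were matched by symbol for 8 of the 10 members, with 13 start sites, and those of FTH1 and HMOX1 were not analysed here. The core of the antioxidant response element, TGACNNNGC, occurred in 1 of these, at NCOA4, and in 13.3% of all promoters. Among the members the NF-kappaB core also occurred at SLC40A1, TFRC, ACO1, SLC11A2 and IREB2, and TGANTCA also at NCOA4 and SLC11A2. The matches are thus not particular to LCN2. They describe letters only and say nothing about binding.

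**Figure D2:**
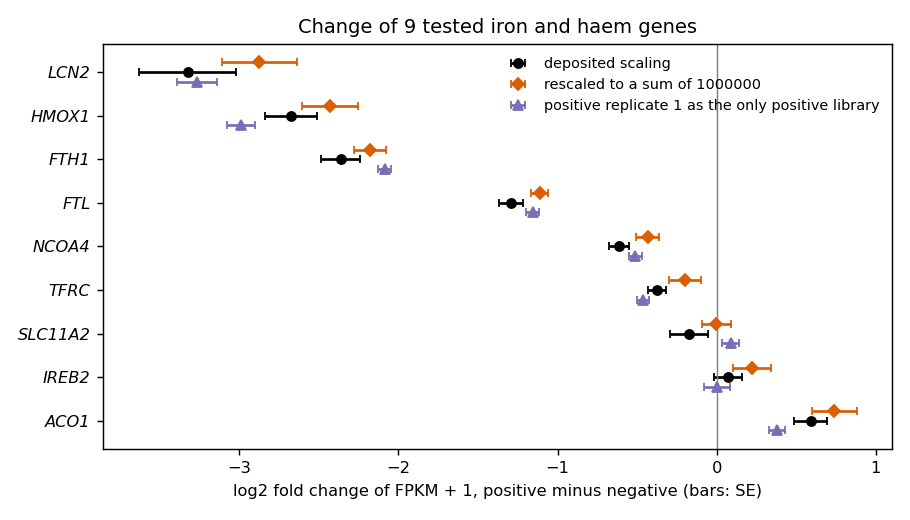
Log2 fold change with its SE for the 9 tested genes under the deposited scaling, after rescaling to a sum of 1000000, and with replicate 1 alone as the ZsGreen-positive group. LCN2, HMOX1, FTH1, FTL, NCOA4 and TFRC lie below 0 and ACO1 above 0 in all 3, while SLC11A2 and IREB2 lie near 0.

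The order of the members by level differed between the groups. In the ZsGreen-negative libraries it was FTL, FTH1, TFRC, NCOA4, HMOX1, LCN2, SLC11A2, ACO1, IREB2 and SLC40A1, and only LCN2 and SLC11A2 overlapped as neighbours. In the positive libraries it was FTL, FTH1, TFRC, NCOA4, ACO1, SLC11A2, IREB2, HMOX1, LCN2 and SLC40A1. Here ACO1 overlapped SLC11A2, and IREB2 overlapped HMOX1. The first 4 places were thus shared, and by their means HMOX1 and LCN2 stood below both iron regulatory protein genes in the positive libraries. FTH1 was 5.14 times as high as TFRC in the negative libraries by the ratio of means, and 1.31 times in the positive ones.

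Other genes of iron and haem metabolism went in both directions. Of 88 listed genes apart from the members, 73 were tested, and 26 rose, 20 fell and 27 did not pass. This is 63.0%, near the 59.4% of all tested genes, so the count sets these genes little apart. Their median log2 fold change was 0.28. After rescaling to a sum of 1000000, 39 rose and 15 fell. Calls over all tested genes moved in the same way, to 4281 higher and 2609 lower, from 3590 and 3668.

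Among 10 tested uptake genes, 3 rose, 2 fell and 5 did not pass (median 0.21). Thus 50% passed, against 59.4% of all tested genes. TFR2, the second transferrin receptor, rose from 1.30 ± 0.187 to 3.64 ± 1.18 FPKM and HFE, a partner of the transferrin receptors, from 3.86 ± 0.633 to 8.05 ± 0.401 FPKM. SLC39A14, a transporter of iron not bound to transferrin, fell from 100.3 ± 4.09 to 59.3 ± 1.23 FPKM (log2 fold change -0.75 ± 0.0571; limma, adjusted p = 3.4e-05). Named after their values were seen, SLC46A1 was the other uptake gene that rose and CYBRD1, a ferric reductase, the other that fell. STEAP3, the ferric reductase of the endosome, was at 7.24 ± 0.599 and 9.07 ± 1.74 FPKM and did not pass (limma, adjusted p = 0.131). It passed as higher after rescaling to a sum of 1000000 (limma, adjusted p = 0.0171) and without ZsGreen-positive replicate 2 (0.0219). With replicate 1 alone as the ZsGreen-positive group its log2 fold change was 0.52, against 0.28 with all libraries.

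PCBP1 and PCBP2, which deliver iron to ferritin, also fell. PCBP1 fell from 16.7 ± 1.32 to 4.71 ± 0.597 FPKM (log2 fold change -1.63 ± 0.11; limma, adjusted p = 2.08e-05) and PCBP2 from 51.8 ± 0.287 to 29.9 ± 4.99 FPKM. They were 2 of the 3 tested genes of storage, export and systemic control (66.7%, against 59.4% of all tested genes). The third, BMP6, did not pass. The other 8 of this list were below the filter, among them HAMP, which encodes hepcidin, and FTMT, mitochondrial ferritin, both listed at 0 in every library.

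Downstream of haem oxygenase, the biliverdin reductases went in opposite directions. BLVRA rose from 11.8 ± 0.677 to 21.8 ± 3.28 FPKM (log2 fold change 0.83 ± 0.11; limma, adjusted p = 0.000613), and BLVRB fell from 91.9 ± 4.60 to 67.5 ± 6.99 FPKM (log2 fold change -0.44 ± 0.0873; limma, adjusted p = 0.00358). Of 7 tested genes of haem breakdown and transport, 2 rose, 3 fell and 2 did not pass (median -0.25). Thus 71.4% passed, against 59.4% of all tested genes. FLVCR1, a haem exporter, was at 9.68 ± 0.232 and 6.48 ± 1.71 FPKM and FLVCR2 at 0.715 ± 0.0807 and 1.66 ± 0.628 FPKM. FLVCR1 fell and FLVCR2 rose (limma, adjusted p = 0.0225 and 0.0387), but both calls were lost without any 1 of the negative libraries (limma, adjusted p 0.0592 to 0.124). FLVCR1 also lost its call without ZsGreen-positive replicate 1 (limma, adjusted p = 0.0591) and after rescaling to a sum of 1000000 (0.142). FLVCR2, at 2.36, 1.48 and 1.15 FPKM in the positive libraries, was below the filter without ZsGreen-positive replicate 1 and not tested there.

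Of 11 haem synthesis genes 5 rose, 1 fell and 5 did not pass (median 0.30). Thus 54.5% passed, against 59.4% of all tested genes. UROD, which acts midway in haem synthesis, rose from 24.0 ± 0.542 to 59.6 ± 1.77 FPKM (log2 fold change 1.27 ± 0.0594; limma, adjusted p = 3.96e-06). PPOX, a late enzyme of this pathway, rose from 4.30 ± 0.672 to 7.40 ± 1.501 FPKM, and ABCB10, a mitochondrial transporter, from 4.95 ± 0.356 to 8.78 ± 0.450 FPKM. CPOX and ABCB6 also rose, and TMEM14C fell, all named after their values were seen. Of 29 genes of mitochondrial iron and iron-sulphur cluster assembly 13 rose, 4 fell and 12 did not pass (median 0.39). Their share of 58.6% was near that of all tested genes. FDXR, which passes electrons to the ferredoxins, rose from 14.5 ± 0.431 to 56.7 ± 6.33 FPKM (log2 fold change 1.89 ± 0.0906; limma, adjusted p = 4.38e-06). NUBP2 and NARFL, of the cytosolic cluster assembly system, rose from 29.2 ± 2.66 to 74.5 ± 10.1 FPKM and from 5.34 ± 0.548 to 13.8 ± 3.22 FPKM. The 4 that fell, named after their values were seen, were SLC25A37, ISCU, ISCA1 and HSPA9.

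The ubiquitin ligase gene FBXL5 and the transcription factor genes BACH1 and NFE2L2 were lower. Of 10 tested regulators, 6 fell, 3 rose and 1 did not pass (median -0.73). Thus 90% passed, against 59.4% of all tested genes, in a list chosen with earlier results known. FBXL5, which directs iron regulatory proteins to degradation when iron is plentiful, fell from 35.6 ± 0.317 to 14.1 ± 4.02 FPKM (log2 fold change -1.32 ± 0.18; limma, adjusted p = 0.000599). BACH1, the haem-sensing repressor of HMOX1, fell from 38.0 ± 0.998 to 16.2 ± 3.02 FPKM (log2 fold change -1.19 ± 0.13; limma, adjusted p = 0.000169). NFE2L2, which encodes NRF2, fell from 52.1 ± 1.40 to 23.8 ± 0.809 FPKM (log2 fold change -1.10 ± 0.0614; limma, adjusted p = 8.5e-06). The repressor and the activator of HMOX1 were thus both lower at the transcript level. The 3 that rose, named after their values were seen, were KEAP1, HERC2 and SKP1. Outside the members, 4 transcripts with a reported iron-responsive element were tested, and 3 fell (75%, against 59.4% of all tested genes in either direction). CDC42BPA fell from 21.8 ± 0.662 to 8.38 ± 1.57 FPKM, EPAS1, which encodes HIF-2alpha, from 11.7 ± 0.317 to 6.22 ± 1.34 FPKM, and CDC14A from 4.65 ± 0.729 to 2.30 ± 0.292 FPKM. With replicate 1 alone as the ZsGreen-positive group the log2 fold change of EPAS1 was -0.54, against -0.83 with all libraries.

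**Figure D3:**
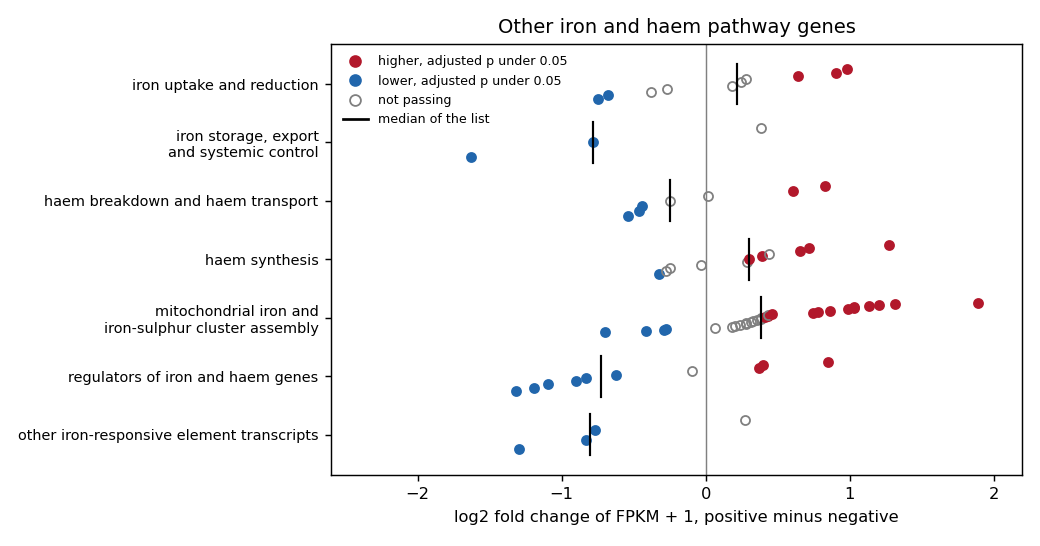
Log2 fold change of each tested gene in 7 lists of other iron and haem genes, coloured by the limma call, with the median of each list as a line. Cluster assembly and haem synthesis genes lie mostly to the right of 0 and regulators mostly to the left.

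The genes whose values over the 6 libraries lay nearest to those of 3 members were found by the Euclidean distance of log2(FPKM + 1), each gene centred on its own mean. For FTL they were BIRC2 (distance 0.0753), DNAJB1 (0.0901) and STK24 (0.108). For TFRC they were SCRN1 (0.0481), POLR2B (0.0537) and UBE4A (0.0608). For HMOX1 they were EMP1 (0.231), CDKN2B (0.258) and GADD45B (0.306). EMP1 was at 55.8 ± 3.20 in the negative and 7.29 ± 2.34 FPKM in the positive libraries, beside 66.2 ± 4.77 and 9.71 ± 2.54 FPKM for HMOX1. The 3 nearest genes of HMOX1 lay farther from it than those of TFRC and FTL did from theirs. The distance includes the difference between the groups and is not scaled for the size of the change or the spread. Since these differ between the 3 members, the distances do not rank how closely each is matched.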

How the data were processed

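The authors deposited 1 table of FPKM per library for 6 libraries. Cuffdiff 2.2.1, SAMtools 0.1.18, TopHat2 2.1.1 and Bowtie2 2.2.8 were used with hg19, per the submitters' processing notes. The sources used here do not give settings, annotation, scaling between libraries or the treatment of strand and shared reads. FPKM depends on the total of each library, so abundant RNAs can shift all other values.

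Genes with a mean of at least 1 FPKM were fitted with limma 3.58.1 in R 4.3.3 on log2(FPKM + 1) (eBayes with trend, two-sided, 4 residual and 3.22 prior degrees of freedom, Benjamini-Hochberg). The fit was also run on simulated data with independent noise and the same spread in both groups. Such data cannot show how unequal spread or a batch would affect the calls. Ratios were compared by exact permutation in Python 3.11.15 with SciPy 1.17.1. Depth is the most common value of a single fragment among 8119 genes with 1 GENCODE transcript of at least 1000 nt, sought between 7000000 and 16000000 fragments. It was given only with at least 100 low genes and covers counting error only. Fragments of a member use its longest transcript. Since fragments were estimated, no count model was run.

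The members and lists were chosen with earlier results of these data known. Genes were named by rule: all members, up to 3 passing genes per list with non-overlapping groups and the largest change, 8 fixed regulators and enzymes, ferritin pseudogenes, and the 3 nearest genes of FTL, TFRC and HMOX1. Alternatives were other pseudocounts, filters and scalings, leaving out each library, a replicate block, and, added after seeing the data, replicate 1 alone as the ZsGreen-positive group.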

Additional observations from a re-analysis of the deposited data

How the results depend on the processing

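The member counts (6 lower, 1 higher) were the same under 12 of 15 alternatives, with 5 lower under both rescalings to 1000000, where TFRC did not pass, and 7 lower without ZsGreen-positive replicate 1, where SLC11A2 passed. SLC11A2 changed sign with replicate 1 alone as the ZsGreen-positive group, an alternative chosen after seeing the data (0.0877). Under it 42 other pathway genes rose, against 26. The rescalings gave the calls of all tested genes as 62.1% higher (60.9% without small RNA genes), against 49.5%. Leaving out 1 library in turn gave 2975 to 3762 genes higher and 2962 to 3816 lower over all genes, 22 to 34 and 17 to 22 among other pathway genes, and 1 and 6 to 7 among members. The log2 differences of the ratios then ranged from -1.15 to -0.98 for FTH1 to FTL, 1.85 to 2.17 for TFRC to FTH1, -0.61 to -0.46 for IREB2 to ACO1 and -2.53 to -1.99 for HMOX1 to HMOX2. Same-numbered libraries did not deviate together (correlations -0.0301 to -0.0209). With the number as a replicate block 3433 genes were higher and 3482 lower, members had 6 lower and 1 higher, and the ratio of FTH1 to FTL had p = 0.25 (exact sign-flip permutation test, the smallest possible with 3 pairs). Among the named genes only FLVCR2 lost its call under the block (adjusted p = 0.0605). A pseudocount of 5 brought TFR2 to 0.45, HFE to 0.56, FLVCR2 to 0.22, PPOX to 0.41, ABCB10 to 0.47, CDC14A to -0.40 and CDKN2B to -1.67, and one of 0.1 brought FLVCR2 to 1.06. Depth limits what can be said of SLC40A1. The cause of these shifts was not tested.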
